A study of Mus musculus with 4 samples.

Results

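The collagen genes of brown adipose tissue (BAT) were described in RNA sequencing libraries of WT mice. The deposited table lists 17259 genes, of which 12973 are protein-coding, and 32 protein-coding rows carry a symbol that begins with Col, a number, the letter a and a number. Of these 32 rows, 31 encode collagen chains. The remaining row, Col4a3bp, encodes a ceramide transfer protein of the cytosol that was named after a binding partner, and it was kept apart from all counts of collagens. The 4 libraries fall into 2 groups of 2, BAT-total and BAT-Mito. The treatment label of BAT-Mito is isolated mitochondria, and that of BAT-total is tissue minus mitochondria. The titles of BAT-total and the study itself speak of total tissue, so that it cannot be told from the labels whether mitochondria had been removed from it. The study's protocol for mitochondria, written for the heart, treats them with digitonin and RNase A before RNA is taken, and whether this was done for BAT is not given. All groups share the genotype WT. The methods give a strain background for WT mice bred beside the study's mutant lines, but not whether the BAT libraries came from such mice. Age and sex of the mice behind these libraries, and whether a library came from 1 animal or a pool, were not given in the sources used here, and p-values therefore measure the spread between these libraries only.

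Collagens are the main fibre and sheet proteins of the extracellular matrix. Their mRNAs are translated at the rough endoplasmic reticulum (ER), where a signal peptide directs the growing chain into the lumen and where prolines and lysines are hydroxylated before the chains wind into a helix and are secreted. In adipose tissue they are known as products of fibroblasts, of cells of the vessel wall and of the adipocytes themselves, which each sit in a basement membrane. Binding of mRNAs to the ER was not measured in these libraries. The comparison asks how such mRNAs divide between isolated mitochondria, a preparation to which ER membranes are known to adhere, and BAT-total.

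What sets the collagens apart from Col4a3bp can be read in their coding sequences. The beginnings of 5 are shown because the signal peptide of a collagen is encoded there. They were taken from GENCODE M21 transcripts on build GRCm38, with the start codon in capitals.
Col1a1, chr11:94936369-94936398, plus strand: ATGttcagctttgtggacctccggctcctg
Col4a1, chr8:11312570-11312599, minus strand: ATGgggccccggctcagcgtctggcttctg
Col4a2, chr8:11313464-11313493, plus strand: ATGgaccgagtgcggttcaaagcgtctggc
Col6a1, chr10:76725884-76725913, minus strand: ATGaggctggcccacgctctgctgcccctg
Col4a3bp, chr13:96543164-96543193, plus strand: ATGtcggataaccagagctggaactcgtcg

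The helix of a collagen needs a glycine at the head of each triplet of residues, which the mRNA shows as a GGN codon at the head of every group of 9 bases. Whole exons of 54 bases from 4 collagens are shown with these codons in capitals.
Col1a1 exon 8, chr11:94939904-94939957, plus strand: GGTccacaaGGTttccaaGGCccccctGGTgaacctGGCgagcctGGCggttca
Col3a1 exon 6, chr1:45325360-45325413, plus strand: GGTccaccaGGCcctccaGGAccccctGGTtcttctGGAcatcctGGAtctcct
Col4a1 exon 7, chr8:11245211-11245264, minus strand: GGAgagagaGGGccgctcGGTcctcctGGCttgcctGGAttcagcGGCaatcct
Col6a1 exon 9, chr10:76719623-76719676, minus strand: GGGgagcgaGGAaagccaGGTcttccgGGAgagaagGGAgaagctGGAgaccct

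The longest unbroken run of such codon groups had 28 to 344 repeats in the 31 collagens and 2 in Col4a3bp. Col3a1 held the longest run with 344 repeats, and Col1a1 had 338. In Col4a1 the run was broken early, at 40 repeats, as is known of the flexible basement membrane chains. GGN codons made up 9.17% to 31.2% of the coding sequence of the collagens and 5.30% of that of Col4a3bp. The 54-base exon that is typical of fibrillar collagens occurred 24 times among the 51 coding exons of Col3a1, 2 times among the 52 of Col4a1 and 0 times in Col4a3bp.

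The values are normalised counts, that is gene counts that the authors divided by a size factor per library and rounded. Low values in BAT-Mito step by 8.32 units in its replicate 1 and by 6.90 in its replicate 2, which is what a single read adds, and from these steps the collagens together held 400 and 465 reads there. Over all genes about 26288857 and 24910439 reads were recovered in BAT-Mito, nearly all of them outside nuclear protein-coding genes. The reads behind BAT-total are unknown. The brown adipocyte markers were present in all libraries. Ucp1, which uncouples respiration for heat, had 4819 and 4185 normalised counts in BAT-total and 1290 and 3554 in BAT-Mito. The 14 hepatocyte markers took 4.22% and 0.423% of the nuclear protein-coding values in BAT-Mito replicates 1 and 2 and 0.0961% and 0.0467% in BAT-total. The 8 skeletal muscle markers took 0.799% and 0.269% against 0.0453% and 0.0962%. Summed markers of these other tissues were thus higher in BAT-Mito than in BAT-total, most in replicate 1, and their part in the collagen values was not tested. Of 8 cartilage and bone markers 2 were listed, with at most 2 reads in BAT-Mito.

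In BAT-total the collagen mRNAs of basement membrane and of interstitial fibres were the highest. Per kb of the principal transcript, Col4a1 had 105 and 92.8 normalised counts in replicates 1 and 2, Col3a1 had 96.2 and 91.8, and Col4a2 had 72.1 and 68.1. By this length Col4a1 and Col3a1 did not differ beyond their spread, and both lay above Col4a2 in both replicates. With exon length over all transcripts of a gene the order was Col4a1 at 93.2 and 82.3, Col4a2 at 70.3 and 66.3 and Col3a1 at 54.5 and 52.1, so that the place of Col3a1 depends on the length used. Col4a1 and Col4a2 encode the chains of the type IV network that underlies endothelium and surrounds each adipocyte, and Col3a1 encodes the reticular fibres of loose connective tissue. The chains of type I collagen, the main fibre of tendon, skin and bone, followed with 47.7 and 44.9 per kb for Col1a2 and 40.0 and 37.4 for Col1a1. The order of Col4a2, Col1a2 and Col1a1 held in both libraries, although with exon length over all transcripts Col1a2 moved from rank 4 to rank 6.

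The chains of type VI collagen, which forms beaded filaments around cells and is known as a prominent collagen of fat, came next. Col6a2 had 26.3 and 31.7 per kb, Col6a1 had 24.1 and 19.8, and Col6a3 had 17.9 and 22.2. Col6a2 lay above both others in both replicates, whereas Col6a1 and Col6a3 overlapped, and with exon length over all transcripts Col6a2 moved from rank 6 to rank 9. Col15a1, a multiplexin of the zone between basement membrane and matrix, had 18.9 and 19.3 per kb, within the range of Col6a3. The type V chains, which start and limit the growth of type I fibrils, were at 9.32 and 10.5 for Col5a3, 8.33 and 8.21 for Col5a1, and 7.85 and 8.60 for Col5a2. Col5a1 and Col5a2 did not differ beyond their spread. Col27a1 at 9.46 and 17.1 overlapped with Col5a3. The other tested collagens, Col18a1, Col14a1, Col20a1, Col12a1, Col4a5 and Col4a4, lay lower, with means from 5.32 down to 0.742 per kb.

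Together the fibrillar genes made up 42.4% ± 0.825 of all collagen values in BAT-total, the type IV genes 37.1% ± 2.08 and the type VI genes 12.9% ± 0.872 (SD, n = 2 each). The multiplexins added 4.07% ± 0.0742, and the fibril-associated collagens (FACIT), which sit on the surface of fibrils, 2.72% ± 0.398. The replicates were close: 14 of 19 collagens with a mean of at least 10 normalised counts over the 4 libraries differed by under 1.25-fold between them. Col27a1, a fibrillar collagen known from cartilage, was among the exceptions with 72 and 130 normalised counts, and Col12a1, a FACIT of tendon and fascia, had 21 and 45.

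The other 12 collagens did not reach this mean and were not tested. They had at most 18 normalised counts in any BAT-total library and at most 2 reads in BAT-Mito over both replicates. Among them were Col11a1, Col11a2 and Col9a3 of cartilage, the transmembrane collagens Col13a1, Col17a1 and Col23a1, the anchoring fibril collagen Col7a1, and Col28a1, which is known from Schwann cells. The rest were Col4a3, Col6a6, Col8a1 and Col16a1. In BAT-Mito 4 of the 12 were at 0 reads in both libraries.

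**Figure D1:**
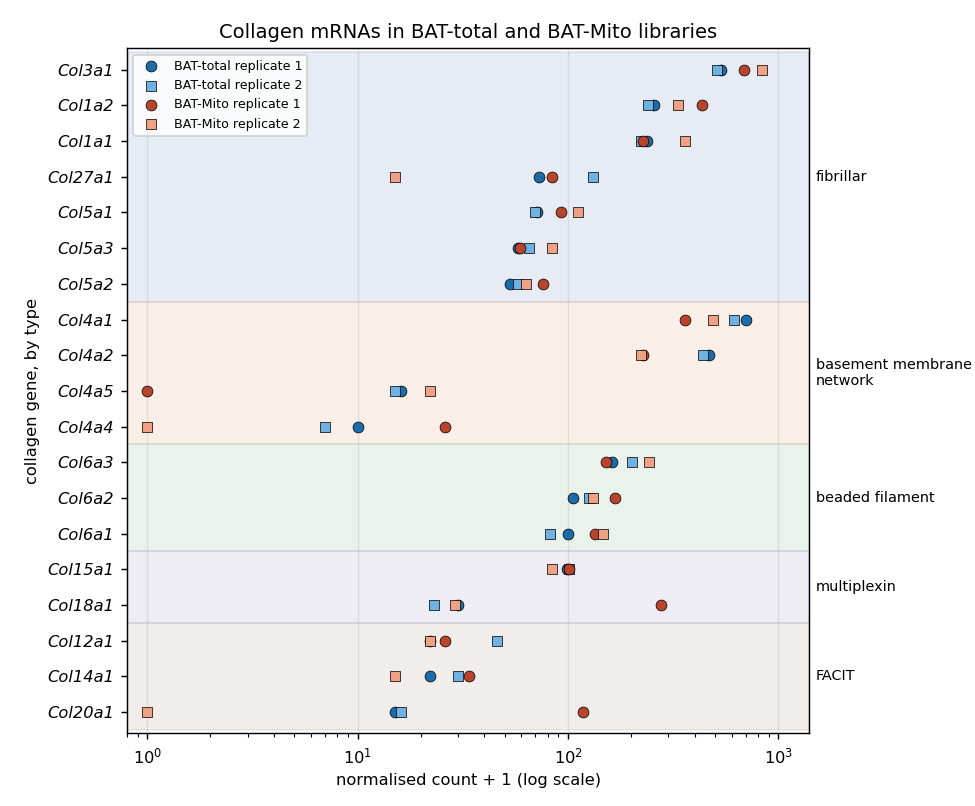
Normalised counts plus 1 (log axis) of the 19 tested collagen genes, 1 point per library, with genes grouped by collagen type and blue and red marking BAT-total and BAT-Mito. The points of Col4a1 and Col4a2 from BAT-Mito lie to the left of those from BAT-total, those of Col3a1 and Col1a2 lie to the right, and the pair of red points of Col18a1 and Col20a1 lie far apart.

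In BAT-Mito the collagen mRNAs were found at normalised counts near those of BAT-total. Summed over 31 genes they came to 3330 and 3211 in BAT-Mito and to 3077 and 3033 in BAT-total. The sum over all nuclear protein-coding genes was 411200 and 402796 in BAT-Mito against 644444 and 633173 in BAT-total. The collagen share of nuclear protein-coding values was accordingly 0.810% (95% Wilson interval 0.734 to 0.892%, 400 of 49420 reads) and 0.797% (0.729 to 0.874%, 465 of 58238 reads) in BAT-Mito, and 0.477% and 0.479% in BAT-total. The means were 0.804% ± 0.00894 and 0.478% ± 0.00110 (SD, n = 2 each). The 2 groups did not overlap and differed by more than their spread, but an exact two-sided permutation test of 2 against 2 libraries cannot go below the p of 0.333 that it gave. The intervals cover counting error only. With values per kb of exon the shares were 0.229% and 0.273% in BAT-Mito and 0.244% and 0.247% in BAT-total, and the groups overlapped. With all nuclear genes as the denominator, most of whose BAT-Mito reads do not come from protein-coding rows (1248730 and 1129485 reads in all), the share was 0.0320% and 0.0412% against 0.395% and 0.391%. The direction of this difference therefore depends on the denominator. In such libraries fewer cells of a type, less RNA per cell and the way an mRNA divides between the fractions cannot be told apart.

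Gene by gene, 0 of 19 tested collagens were called higher and 0 lower by limma at an adjusted p under 0.05, against 0.803% of the 8215 genes tested called higher and 4.41% called lower. At an unadjusted p under 0.05 the count was 0 of 19, against 18.1% of all genes, and edgeR and DESeq2 on reads called 0 as well, with 1 and 2 collagens at an unadjusted p under 0.05, against 28.7% and 23.3% of all genes. Over all genes edgeR called 2.17% higher and 2.5% lower, and DESeq2 called 2.35% higher and 3.66% lower. The lowest limma adjusted p of a collagen was 0.303. SEs ran from 0.41 to 2.68 on the log2 scale, and the tested collagens had 3 to 203 reads in BAT-Mito over both replicates. The background itself varies: limma called 1 of all genes lower with a pseudocount of 10, 11 with a mean of at least 50 and 0 with the replicate block. Among all genes tested 372 had 0 reads in BAT-Mito, against 0 of the 19 collagens, so that the shares compare unlike genes. In counts simulated at this depth with strong known changes in a few genes, limma called none of these genes, whereas edgeR called part of them. The simulation used a lower dispersion than the 0.083 that edgeR estimated here and no general shift between the fractions, so it does not match these data. With 2 libraries per group and these SEs, a missing limma call does not show that a collagen was at the same level in both fractions.

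The median log2 fold change of the 19 collagens, BAT-Mito over BAT-total on the scale of normalised count plus 1, was 0.086, and that of all 8215 genes was -1.23. Relative to that median the collagens were at 1.32. Their log2 fold change was above 0 in 10 of 19 (52.6%), against 18.8% of all genes, and above the median of all genes in 17 of 19, the exceptions being Col4a5 and Col27a1. In 6 of 19 (31.6%) both BAT-Mito libraries lay above both BAT-total libraries, against 8.59% of all genes, and in 2 of 19 (10.5%) both lay below, against 52.1% of all genes. With pooled reads, and with genes without reads set to a bound of 3 reads over the group, the medians were 0.32 and -0.81. These counts describe a list of related genes and carry no test. The scaling of the libraries sets the zero point. With equal nuclear protein-coding totals 14 of 19 were above 0 and the median of all genes was -0.63, and with CPM over all genes, where BAT-Mito is mostly mitochondrial RNA, 0 of 19 were above 0.

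**Figure D2:**
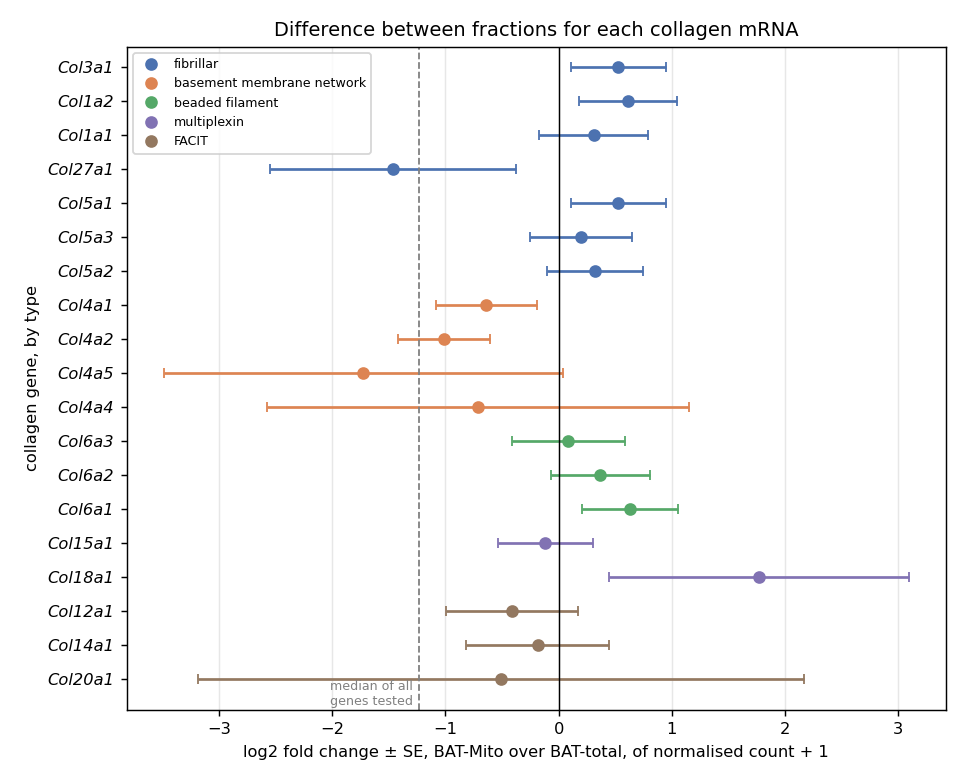
Log2 fold change (BAT-Mito over BAT-total, of normalised count plus 1) of each of the 19 tested collagen genes with its SE from limma, coloured by collagen type, with the dashed line at the median of all tested genes (-1.23). Type I, III, V and VI chains lie between 0.086 and 0.63, the 4 type IV chains lie below 0, and the widest bars belong to Col20a1, Col4a4, Col4a5 and Col18a1.

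The fibrillar collagens were the largest group, with 7 of 9 listed genes tested. Col3a1 had 535 and 511 normalised counts in BAT-total and 682 and 835 in BAT-Mito, the latter from 82 and 121 reads. Both BAT-Mito libraries were above both others. Its log2 fold change was 0.53 (SE 0.42, 95% interval -0.73 to 1.79) with a limma adjusted p of 0.486. Col1a2 had 255 and 240 in BAT-total and 433 and 331 in BAT-Mito, again without overlap, and its log2 fold change was 0.61 (SE 0.43, limma adjusted p 0.449). Without BAT-Mito replicate 2, limma called it higher at 0.81 (adjusted p 0.0456) along with 7.57% of all genes, a fit in which the spread comes from BAT-total alone and the lone BAT-Mito library is assumed to vary alike.

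Col1a1 had 237 and 222 in BAT-total and 225 and 359 in BAT-Mito. Its libraries overlapped, with replicate 1 of BAT-Mito level with BAT-total, and the log2 fold change was 0.31 (SE 0.48). Both chains form 1 molecule, and the ratio of Col1a1 to Col1a2 per kb was 0.838 and 0.834 in BAT-total and 0.469 and 0.978 in BAT-Mito. Col5a1 had 70 and 69 in BAT-total and 92 and 110 in BAT-Mito, and Col5a2 had 52 and 57 against 75 and 62. Both of these type V chains lay higher in BAT-Mito without overlap, at log2 fold changes of 0.53 (SE 0.42) and 0.32 (SE 0.42). Col5a3, the chain known from adipose tissue and skeletal muscle, overlapped at 57 and 64 against 58 and 83. Col27a1 was the fibrillar gene with a log2 fold change below 0, -1.46 (SE 1.09), from 72 and 130 in BAT-total and 83 and 14 in BAT-Mito. There replicate 2 of BAT-Mito alone was low, at 2 reads.

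Type VI collagen resembled the interstitial fibrils in direction. Col6a1 had 99 and 81 in BAT-total and 133 and 145 in BAT-Mito, a log2 fold change of 0.63 (SE 0.42, limma adjusted p 0.436). Col6a2 had 104 and 125 against 166 and 131, at 0.37 (SE 0.44). Both were higher in BAT-Mito without overlap. Col6a3 had 161 and 200 against 150 and 242, at 0.086 (SE 0.50), with overlapping libraries. The summed values of these chains over those of Col1a1, Col1a2 and Col3a1 were 0.354 and 0.417 in BAT-total and 0.335 and 0.340 in BAT-Mito.

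Of the 19 tested collagens, the type IV chains Col4a1 and Col4a2 of the basement membrane were the pair whose BAT-Mito libraries both lay below both BAT-total libraries. Col4a2 had 465 and 439 normalised counts in BAT-total and 225 and 221 in BAT-Mito, from 27 and 32 reads. Both BAT-Mito libraries were at about the same level and below both others. Its log2 fold change was -1.02 (SE 0.41, 95% interval -2.23 to 0.20), with a limma adjusted p of 0.303 over 8215 genes. Limma called it lower when all 17259 genes were tested (adjusted p 0.0377), without BAT-Mito replicate 1 (0.0375) and without BAT-Mito replicate 2 (0.0344), fits in which it called 20.8%, 41.1% and 47.0% of all genes lower. The log2 fold change of Col4a2 was -0.67 with TMM (limma adjusted p 0.487), -0.36 with median ratios (0.703) and -0.37 with equal nuclear protein-coding totals (0.698). Col4a1, its partner in the same molecule, had 696 and 614 in BAT-total and 358 and 490 in BAT-Mito, also without overlap, at -0.64 (SE 0.45, limma adjusted p 0.444), a direction that flips to 0.012 with median ratios and 0.0081 with equal nuclear protein-coding totals. Relative to the median of all genes these values were 0.21 for Col4a2 and 0.59 for Col4a1, so that both lay above that median. The genes of Col4a1 and Col4a2 start from opposite strands and share 22 bp at their starts. Reads that overlap several genes were left out by the authors.

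The other type IV chains were close to the floor. Col4a5 had 15 and 14 in BAT-total and 0 and 21 in BAT-Mito, the latter from 0 and 3 reads, and the ratio of pooled BAT-Mito reads to BAT-total was 0.781 (95% Poisson interval 0.161 to 2.28). Col4a4, a chain of the kidney filter, had 9 and 6 in BAT-total and 25 and 0 in BAT-Mito, from 3 and 0 reads, a ratio of 1.51 (0.311 to 4.41). Neither gives a direction, and their log2 fold changes, -1.72 (SE 1.76) and -0.71 (SE 1.86), each include a BAT-Mito library at 0.

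A ratio between collagens of the same library does not depend on how libraries are scaled. The summed values of Col4a1 and Col4a2 over those of Col1a1, Col1a2 and Col3a1 were 1.13 and 1.08 in BAT-total. In BAT-Mito the same ratio was 0.435 (95% Clopper-Pearson interval 0.324 to 0.579, 70 against 161 reads) and 0.466 (0.365 to 0.591, 103 against 221 reads). The means were 1.11 ± 0.0341 and 0.451 ± 0.0220 (SD, n = 2 each), and BAT-Mito stood at 0.407 times BAT-total. The groups did not overlap and the difference exceeded the spread of either. The intervals cover counting error of BAT-Mito only, and none can be given for BAT-total. The exact two-sided permutation p was 0.333, the smallest that 2 against 2 libraries allow. The ratio was chosen after the values had been seen. Without Col4a1 BAT-Mito stood at 0.346 times BAT-total, and without Col3a1 at 0.413 times.

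**Figure D3:**
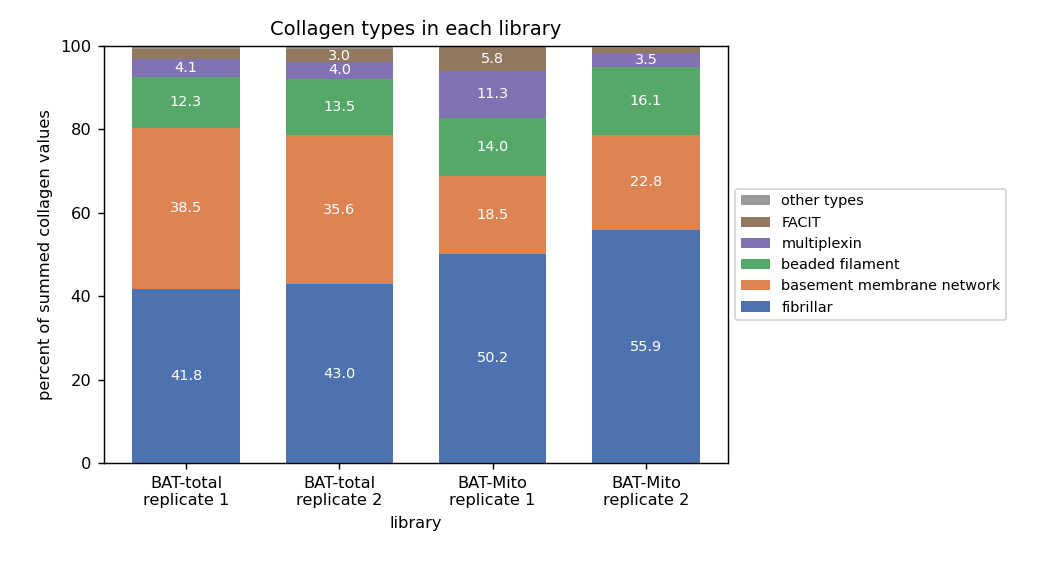
Percent of the summed collagen values taken by each collagen type in each of the 4 libraries, as stacked bars that start at 0. The basement membrane chains take 38.5% and 35.6% in BAT-total and 18.5% and 22.8% in BAT-Mito, while the fibrillar chains take 41.8% and 43.0% against 50.2% and 55.9%.

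As shares of all collagen values the type IV genes thus stood at 20.6% ± 3.04 in BAT-Mito and 37.1% ± 2.08 in BAT-total, and the fibrillar genes at 53.1% ± 3.98 and 42.4% ± 0.825 (SD, n = 2 each). Both differences exceeded the spread of either group. The order of the genes was broadly kept: across the 19 tested collagens the log2 values of the fractions had a Pearson r of 0.874 and a Spearman rho of 0.866, a description over genes that share their libraries.

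Among the tested multiplexins and FACITs, Col18a1, Col20a1 and Col14a1 differed most between the BAT-Mito replicates, while Col15a1 and Col12a1 had near values in both. Col15a1 had 98 and 100 in BAT-total and 100 and 83 in BAT-Mito, at a log2 fold change of -0.12 (SE 0.42). Col18a1, whose protein carries endostatin at its end and which is known as a collagen of the liver, had 29 and 22 in BAT-total and 275 and 28 in BAT-Mito, from 33 and 4 reads. Replicate 1 of BAT-Mito was far above the other 3 libraries, which lay together. The log2 fold change was 1.77 (SE 1.32, limma adjusted p 0.466), 0.14 without BAT-Mito replicate 1, and 3.39 without BAT-Mito replicate 2, where limma called it higher (adjusted p 0.0210). The summed hepatocyte markers were likewise highest in BAT-Mito replicate 1. Alb, the serum albumin gene, had 97 and 3 in BAT-total and 4943 and 393 in BAT-Mito, and 13 of 14 hepatocyte markers lay higher in BAT-Mito without overlap, against 8.59% of all genes. Limma called 0 of them higher, against 0.803% of all genes, and edgeR called 9, against 2.17%. The hepatocyte list was added after the values had been seen. Members such as Fgg, with 4 and 0 in BAT-total and 333 and 14 in BAT-Mito, reached the tested mean only through BAT-Mito. These counts were thus largely fixed in advance and only describe the list. The part of the hepatocyte markers in the value of Col18a1 was not tested. Col18a1 also overlaps Slc19a1 on the opposite strand, which had 0 and 14 in BAT-Mito and 10 and 6 in BAT-total.

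Col20a1 had 14 and 15 in BAT-total and 117 and 0 in BAT-Mito, from 14 and 0 reads. Limma called it lower without BAT-Mito replicate 1 (-3.95) and higher without BAT-Mito replicate 2 (2.93), and it therefore has no direction in these data. Col12a1 had 21 and 45 against 25 and 21, and Col14a1, a FACIT of skin and tendon, had 21 and 29 against 33 and 14. Both rested on 6 reads in BAT-Mito and overlapped between the fractions.

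Col4a3bp, the row that is no collagen, had 80 and 73 in BAT-total and 17 and 55 in BAT-Mito, from 2 and 8 reads. Its log2 fold change was -1.29 (SE 0.75, limma adjusted p 0.391), which is -0.057 relative to the median of all genes. This mRNA of a cytosolic protein thus lay at that median, and this is the value of 1 gene.

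The genes that build and handle collagen were described from lists. Of 23 genes for collagen assembly in the ER, 15 were tested and 0 were called in either direction by limma or edgeR. Over all genes limma called 0.803% higher and 4.41% lower, and edgeR 2.17% and 2.5%, so that 0 of 15 is near these shares. The median log2 fold change of this list was -0.98, with 4 of 15 above 0, against 18.8% of all genes. Serpinh1, the chaperone that binds folded collagen in the ER, had 146 and 122 in BAT-total and 67 and 186 in BAT-Mito, at -0.25 (SE 0.70). Mia3, which loads collagen into carriers that leave the ER, had 102 and 81 against 133 and 14, at -1.04 (SE 1.29). Sec31a, of the coat of these carriers, had 133 and 163 against 75 and 83, at -0.89 (SE 0.42).

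Of 19 genes for the processing of collagen outside the cell, 9 were tested, and the median was -1.24. Limma and edgeR called 0 of the 9, near the shares of all genes (limma 0.803% higher and 4.41% lower, edgeR 2.17% and 2.5%). Timp3, an inhibitor of matrix proteases that binds to the matrix, had 260 and 290 in BAT-total and 67 and 62 in BAT-Mito, at -2.07 (SE 0.41, limma adjusted p 0.154). Mmp2, a gelatinase, had 32 and 35 against 25 and 21, at -0.53 (SE 0.42). Of 10 collagen receptors 3 were tested and 0 called by limma or edgeR, again near these shares of all genes. Ddr2, the receptor kinase for fibrillar collagen, had 48 and 50 against 42 and 48, at -0.12 (SE 0.41), whereas Itga1 and Itgb1, which form an integrin for type IV collagen, were at -1.48 (SE 0.42) and -1.44 (SE 0.43) with limma adjusted p-values of 0.237 and 0.255.

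Other secreted proteins of the stromal matrix had 25 of 30 genes tested, a median of -0.53 and 10 of 25 above 0, against 18.8% of all genes. Limma called 0 of them, against 0.803% of all genes called higher and 4.41% called lower. EdgeR called 1 of 25 lower, against 2.5% of all genes. This was Postn, the periostin gene, with 229 and 182 in BAT-total and 8 and 0 in BAT-Mito, which was named after its value was seen. Sparc, which binds collagen, had 604 and 618 in BAT-total and 374 and 269 in BAT-Mito, at -0.94 (SE 0.44). Hspg2, the perlecan of basement membranes, had 637 and 610 against 300 and 262, at -1.15 (SE 0.41, limma adjusted p 0.287). Stromal mRNAs for cytosolic proteins had a median of -1.29 over 19 tested genes, with 2 of 19 above 0, against 18.8% of all genes. Limma called 0 of these (0.803% of all genes higher and 4.41% lower), and edgeR 0 (2.17% and 2.5%). Vim, the intermediate filament gene of mesenchymal cells, had 348 and 383 against 158 and 214, at -0.99 (SE 0.44). Proteins secreted by adipocytes had a median of -1.39 over 11 tested genes, 0 of which limma called, while edgeR called 1 higher and 1 lower, against 2.17% and 2.5% of all genes. Over the whole table, protein-coding genes annotated in the deposited file to the extracellular region or space, without collagens, had a median of -1.01 (1642 genes tested), and the other annotated protein-coding genes one of -1.40 (4900 genes). The collagens, at 0.086, lay above each of these medians, and the differences between the lists were not tested.

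**Figure D4:**
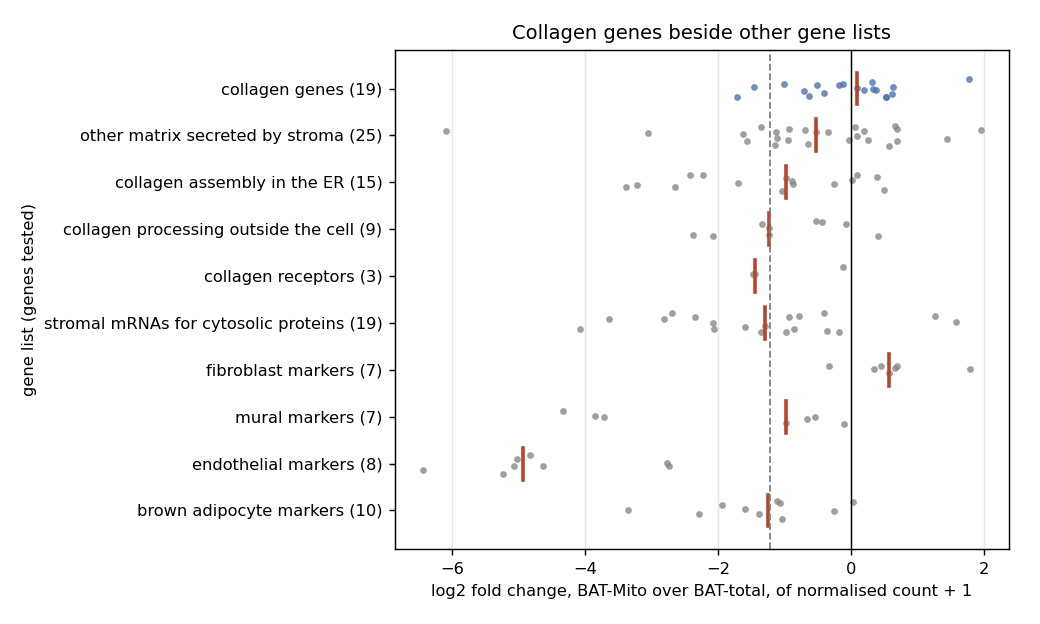
Log2 fold change (BAT-Mito over BAT-total, of normalised count plus 1) of every tested gene in 10 lists, 1 point per gene and the list's median as a red bar, with the dashed line at the median of all tested genes. Collagens (median 0.086) and fibroblast markers (0.56) have medians above 0, and endothelial markers (-4.93) lie furthest to the left.

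Markers of the cells that make collagen also differed in direction. Of 8 fibroblast markers 7 were tested, with a median log2 fold change of 0.56 and 6 of 7 above 0, against 18.8% of all genes. Limma and edgeR called 0 of the 7 in either direction, near the 0.803% and 2.17% of all genes that they called higher. Dcn, the decorin gene, had 132 and 111 in BAT-total and 150 and 214 in BAT-Mito, and Smoc2 had 43 and 44 against 50 and 62. Pdgfra went the other way, with 36 and 27 in BAT-total and 17 and 35 in BAT-Mito, at -0.34 (SE 0.58) and with overlapping libraries. Dcn, Lum, Dpt and Mfap5 also stand in the list of stromal matrix. Of 8 endothelial markers 8 were tested, with a median of -4.93, and all 8 lay lower in BAT-Mito without overlap, as 52.1% of all genes did. Limma called 2 of these lower, Egfl7 and Emcn, both at 0 reads in BAT-Mito, against 4.41% of all genes. EdgeR called 5 lower, against 2.5% of all genes, and did not call Emcn (adjusted p 0.0868). Against a floor of 3 reads over both libraries Egfl7 was at least 7.64-fold lower and Emcn at least 2.83-fold lower. The endothelial list took 0.0304% and 0.00174% of nuclear protein-coding values in BAT-Mito and 0.151% and 0.163% in BAT-total. Mural markers, of pericytes and smooth muscle, had a median of -0.99 over 7 tested genes, with 0 called by limma and Rgs5 called lower by edgeR, against 2.5% of all genes. The fibroblast list took 0.0851% and 0.125% against 0.0450% and 0.0379%. The 10 brown adipocyte markers had a median of -1.25, with 1 of 10 above 0, against 18.8% of all genes. Relative to the median of all genes the fibroblast list was at 1.79, the mural list at 0.24, the brown adipocyte list at -0.026 and the endothelial list at -3.70, and the part of these cells in the collagen values was not tested. Schwann cell markers were near the floor, with 2 of 8 tested and 13 reads in all in BAT-Mito.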

How the data were processed

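RNA of BAT-Mito and BAT-total libraries came from BAT of WT mice, and libraries were prepared with a total RNA kit for low input. Following the study's methods, with versions as the submitters' processing notes give them, reads were trimmed with Trimmomatic 0.39, aligned to GRCm38 with STAR 2.7.10a and counted per gene with featureCounts 2.0.2, and reads of several genes or positions were left out. Fragmentation time was adjusted for mitochondrial samples, so that library preparation may differ with the fraction. The authors deposited a signal, gene counts divided by DESeq2 1.30.1 size factors and rounded. In BAT-Mito 99.8% of the values in each library were whole multiples of a step, rounded, and were taken as reads. The strand setting of the counting is not given in the sources used here.

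Genes with a mean of at least 10 were compared as log2 of the value plus 1 with limma 3.58.1 in R 4.3.3, with Benjamini-Hochberg adjustment over 8215 genes. With reads recovered in BAT-Mito and the BAT-total values taken as reads, edgeR 4.0.16 called 178 genes higher and 205 lower. DESeq2 1.42.0 was run likewise. Of listed genes 99.1% had the same coordinates in GENCODE M21, from which lengths and sequences came. Limma and edgeR were tested on simulated counts with known changes in a few genes, at a lower dispersion than edgeR estimated in the data. Both recovered the size of the changes approximately, on average, and called no unchanged gene, but limma called none of the changed genes and edgeR part of them. The members and lists were chosen with earlier results of these data known, and the hepatocyte list, the extracellular annotation, the ratio of collagen types and the fits on reads were added after the values had been seen. Any collagen could be named, and of other lists the 3 highest genes in BAT-total and those called by limma. Alternatives covered the pseudocount, filter, scaling, trend, replicate block and each library left out.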

Additional observations from a re-analysis of the deposited data

How the results depend on the processing

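The counts of 0 collagens called higher and 0 lower were also obtained with a pseudocount of 10, a mean of at least 50, TMM, median ratios, equal nuclear protein-coding totals, the trend option, edgeR and DESeq2. With all genes of any value 31 collagens were tested, in a fit that called 20.8% of 17259 genes lower and 0.829% higher. There 4 collagens were called lower (Col4a2, Col7a1, Col8a1 and Col13a1) and 1 higher (Col28a1). Col7a1, Col8a1 and Col13a1 had 0 reads in BAT-Mito and BAT-total means of 9.5, 7 and 4.5. These means lie under 11.3 normalised counts, the floor of 3 reads. Col28a1 rested on 1 read in each BAT-Mito library. Col7a1, Col8a1, Col13a1 and Col28a1 therefore have no direction in these data. With a pseudocount of 10 and with a mean of at least 50 limma called 1 and 11 of all genes lower. With CPM 19 were lower and 0 higher, a scaling that moved the median of all genes to -7.15 and called 96.9% of them lower and 0.158% higher. Leaving out 1 library gave 0 to 3 lower and 0 to 3 higher, with spread estimated from BAT-total alone where a BAT-Mito library was left out. Without BAT-Mito replicate 1 the lower genes were Col4a2, Col4a4 and Col20a1, where 41.1% of all genes were called lower and 5.68% higher. Without BAT-Mito replicate 2 Col4a2 and Col4a5 were lower and Col1a2, Col18a1 and Col20a1 higher, where 47.0% of all genes were called lower and 7.57% higher.

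The median of tested collagens was -0.41 with all genes of any value, 0.74 with median ratios, 0.73 with equal nuclear protein-coding totals and -6.39 with CPM. Relative to the median of all genes, which these scalings moved from -1.23 to -0.62, -0.63 and -7.15, it was 1.35, 1.36 and 0.76. It was 0.91 with a pseudocount of 10 and 0.87 with all genes, and with CPM, the pseudocount and all genes the cause of the smaller distance was not tested. The share of collagens differed by 0.00572 percentage points per kb of exon, by -0.357 with all nuclear genes as denominator and by 0.319 to 0.332 with 1 library left out. The type IV ratio was 0.346 without Col4a1, and 0.393 to 0.421 with 1 library left out.

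Signs of single genes went with the scaling. With CPM the log2 fold changes were -6.06 for Col6a1, -6.33 for Col6a2, -6.63 for Col6a3, -6.44 for Col1a1, -6.15 for Col1a2, -6.25 for Col3a1, -6.12 for Col5a1, -6.27 for Col5a2, -6.39 for Col5a3 and -4.77 for Col18a1. With TMM Col14a1 was 0.15 and Col15a1 0.23. With median ratios Col12a1 was 0.22, Col14a1 0.44, Col15a1 0.53, Col20a1 0.0086 and Col4a1 0.012. With equal nuclear protein-coding totals Col12a1 was 0.21, Col14a1 0.44, Col15a1 0.53 and Col4a1 0.0081. With a pseudocount of 10 Col20a1 was 0.54 and Col4a4 0.10, with edgeR 1.88 and 0.61, and with DESeq2 1.995 and 0.67. Leaving out 1 library gave -0.94 to 0.12 for Col12a1, -0.78 to 0.40 for Col14a1, -0.25 to 0.014 for Col15a1, -3.95 to 2.93 for Col20a1, -3.06 to 1.64 for Col4a4, -3.95 to 0.51 for Col4a5, -0.028 to 0.64 for Col1a1, -0.058 to 0.45 for Col5a3 and -0.26 to 0.43 for Col6a3.

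The labels give both groups replicates 1 and 2 but state no pairing, and the differences between replicates correlated at 0.112 across genes. With the replicate block 0 genes of the table and 0 collagens were called, and 944 genes had an unadjusted p under 0.05. EdgeR and DESeq2 had been planned for recovered reads in all libraries, which BAT-total did not give, so the fits that took its values as reads were added after the data had been seen.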
